A study of Mus musculus with 2 samples.

Results

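Transcripts that GENCODE annotation M21 classes as nonsense-mediated decay transcripts were examined in nuclear RNA of mouse macrophages. A transcript was taken as a member when it reached at least 2 TPM, a measure of RNA molecules corrected for transcript length and for the size of the library, in both libraries of the first of the deposited transcript quantifications. Of 7186 annotated transcripts of this type, 632 were members, and they came from 554 genes. All 141767 annotated transcripts of the series were searched, and 14.6% of them reached 2 TPM in both libraries. That share was 8.79% for nonsense-mediated decay transcripts, 18.02% for protein-coding transcripts and 27.7% for retained-intron transcripts. Because the TPM values chose the members, their levels are given as a description.

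The study sequenced ribosomal RNA-depleted total RNA of the nucleoplasmic fraction of bone marrow-derived macrophages from C57BL/6J mice, which had been exposed to Lipid A at 100 ng/ml for 10 minutes. Lipid A is the membrane anchor of bacterial lipopolysaccharide and is sensed by Toll-like receptor 4. There were 2 libraries of 1 group, replicate 1 made from 1 µg and replicate 2 from 500 ng of RNA. They are separate biosamples with a single donor identifier, so the spread between them may be partly technical, and sex and age were not collected. All 8 macrophage markers looked at (Adgre1, Csf1r, Cd68, Lyz2, Itgam, Mertk, Fcgr1 and Spi1) stood at 29.8 TPM or more in the mean of the libraries, and none of the 17 markers of neutrophils, T cells, B cells and fibroblasts reached 2 TPM in both. The nuclear RNA Malat1 stood at 19912 and 30438 TPM in replicates 1 and 2. Neither an untreated nor a cytoplasmic library was analysed here. The tables therefore give the amount of these transcripts in the fraction, and whether they are kept in the nucleus or changed with Lipid A cannot be read from them.

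Nonsense-mediated decay removes messenger RNAs whose stop codon lies well upstream of an exon junction. The exon junction complex left there by splicing recruits the UPF and SMG factors when a ribosome stops before it, and the RNA is then cut and degraded. Recognition requires translation, so an RNA that has not left the nucleus has not yet met its main trigger. Many genes of splicing factors make such transcripts through a poison exon, an alternative exon with a stop codon in frame, and by this route hold their own protein level in check.

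The stretches that carry the early stop are shown for 15 members of genes that encode splicing or RNA-binding proteins or that are described below. Each is the coding part of an exon that overlaps no exon of the gene's protein-coding transcripts, from the exon's first base to the end of the stop codon, which is in capitals. They were read 5′ to 3′ in the sense of the RNA from the GENCODE M21 transcript sequences (mm10), and the coordinates are those of the whole exon.
Tra2a-202, chr6:49252803-49253108, minus strand: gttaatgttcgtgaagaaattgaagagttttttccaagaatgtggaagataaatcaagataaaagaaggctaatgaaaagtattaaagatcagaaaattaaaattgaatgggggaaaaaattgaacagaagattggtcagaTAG
Tra2b-206, chr16:22258986-22259261, minus strand: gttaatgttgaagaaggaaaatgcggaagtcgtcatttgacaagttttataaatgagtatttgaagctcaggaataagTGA
Srsf3-201, chr17:29039454-29039909, plus strand: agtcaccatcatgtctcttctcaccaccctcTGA
Srsf7-203, chr17:80204622-80205081, minus strand: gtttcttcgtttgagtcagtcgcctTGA
Rbm39-223, chr2:156174097-156174168, minus strand: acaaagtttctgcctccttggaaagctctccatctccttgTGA
Rbm39-212, Rbm39-222 and Rbm39-225, chr2:156178880-156178952, minus strand: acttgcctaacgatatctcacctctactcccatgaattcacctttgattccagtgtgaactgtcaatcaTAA
Hnrnpl-213, chr7:28817335-28817404, plus strand: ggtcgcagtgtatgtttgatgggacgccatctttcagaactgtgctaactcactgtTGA
Tial1-204, chr7:128446731-128447107, minus strand: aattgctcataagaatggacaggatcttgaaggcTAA
Tial1-206, chr7:128444042-128444100, minus strand: gtgtcaccaccccaaTAA
Rbmx-205, chrX:57385133-57385221, minus strand: gtTGA
Sat1-207, chrX:155215121-155215230, minus strand: gttacagtctcTAG
Gpnmb-202, chr6:49042269-49042364, plus strand: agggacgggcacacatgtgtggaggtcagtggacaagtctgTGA
Bclaf1-208, chr10:20332396-20332557, plus strand: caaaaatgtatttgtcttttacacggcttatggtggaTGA
Hnrnpl-213 and Tial1-206 are annotated without the start of their coding part. The exons of Tra2a and Tra2b, paralogous splicing activators, begin with the same 9 bases and then differ. In Ddx5-208, the member with the highest TPM, the stop codon lies in a kept intron of 1265 bases at chr11:106782694-106783958 on the minus strand. The reading frame meets it 5 bases into the intron, as gtTAG.

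Members together held 0.548% ± 0.0384 (SD, n = 2) of the TPM of all annotated transcripts and 71.6% ± 0.461 of the TPM of all nonsense-mediated decay transcripts. In the second deposited quantification the same 632 transcripts held 0.346% ± 0.114 of the annotated total, 0.266% in replicate 1 and 0.427% in replicate 2. In expected reads, which weigh long transcripts more, they held 1.48% ± 0.149 of the annotated total, and of the TPM of protein-coding genes they held 1.81% ± 0.189. The median member stood at 5.02 TPM in the mean of the libraries, with quartiles of 3.37 and 8.24 TPM. Levels ran from 2.02 TPM (Nfkb1-207) to 298.6 TPM (Ddx5-208). In both libraries, 98 members reached 10 TPM and 40 reached 20 TPM. Just inside the threshold stood Rexo1-205 (2 and 5.62 TPM in replicates 1 and 2) and Nfkb1-207 (2.02 and 2.01). Just outside stood Mcph1-202 (2.36 and 1.97), Stam-209 (1.99 and 2.1) and Zdhhc16-211 (1.99 and 2.48). The depth behind these values was 19130080 and 11608681 expected reads on annotated transcripts, and the median member had 208 and 150 of them. The fewest for a member were 8.6 and 5.76.

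Most of the 554 genes (489) had 1 member, 55 had 2 and 10 had 3 or more. Transcripts of the nonsense-mediated decay type held 18.2% ± 1.57 of the TPM of the member genes, beside 41.7% ± 2.69 in protein-coding and 36.6% ± 0.999 in retained-intron transcripts. The same type held 18.2% ± 1.29 in the second quantification, with 35.0% ± 0.785 and 38.0% ± 0.389 for the other two types. Among genes at 10 TPM or more in both libraries that have an annotated transcript of this type, 491 had a member and 1269 had none. In the 491 genes with a member, protein-coding transcripts held 41.8% ± 2.69 and retained-intron transcripts 36.9% ± 0.999 of the TPM. In the genes with none, they held 57.5% ± 1.73 and 33.6% ± 0.923. The retained-intron share differed by 3.28 percentage points between the 2 kinds of gene, and the protein-coding share by 15.7 points. Since having a member was set by these TPM values, that contrast is a description.

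Ddx5-208 was the most abundant member by a wide margin, at 312.0 TPM in replicate 1 and 285.2 TPM in replicate 2. Ddx5 is a DEAD-box RNA helicase that works in splicing and transcription. The kept intron gives this transcript 729 bases found in no other transcript of the gene. Exons of Ddx5-208 overlap the genes Gm25994 and Mir3064 on the same strand, and the part of this overlap in its amount was not tested. Its share of the gene's TPM was 58.9% and 51.3%, and in the second quantification 48.6% and 34.7%, so 2 of the 4 values lay above 50%. Both deposited intervals of Ddx5-208, 291.5 to 301.4 and 257.0 to 270.3 TPM, lay below the TPM itself, because the intervals were drawn around a separate estimate, the posterior mean.

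Lilr4b-204 followed with 132.7 and 214.9 TPM. Lilr4b encodes an immunoglobulin-like receptor of leukocytes. This transcript has no base or junction of its own within the gene, and its exons overlap the readthrough gene Gm49339, so its amount is uncertain. The same holds for Lilr4b-213, at 39.2 and 38.9 TPM.

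Enzymes and a receptor account for other members among the 20 highest. Lrp1-205, from the gene of an endocytic receptor, stood at 71.3 and 131.1 TPM. Ctsh-202, from the gene of the lysosomal protease cathepsin H, stood at 53.4 and 38.8 TPM and held 41.0% and 42.0% of its gene. Gusb-206, from the gene of the lysosomal beta-glucuronidase, stood at 41.9 and 23.3 TPM. The lysosomal members were higher in replicate 1 and Lrp1-205 in replicate 2, each by less than 2-fold. Sat1-207 stood at 69.1 and 61.0 TPM. Sat1 acetylates spermidine and spermine, and inclusion of a poison exon in its messenger is a known control of polyamine level. It held 9.79% and 9.45% of the gene, so most Sat1 RNA in the fraction was assigned to other transcripts. Dhrs3-201, from the gene of a retinaldehyde reductase, stood at 58.6 and 54.7 TPM, and Hk3-204, from the gene of hexokinase 3, at 26.6 and 41.1 TPM.

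Among the 20 highest, 3 came from genes of antiviral proteins. Oasl2-205, from an interferon-induced gene of the oligoadenylate synthetase-like family, stood at 56.3 and 59.0 TPM, with 31.4% and 34.3% of the gene. Samhd1-204, from the gene of a nucleotide hydrolase that limits retroviruses, stood at 37.6 and 66.8 TPM. Mx1-205 stood at 33.8 and 29.1 TPM in the first quantification and at 0.975 and 0 TPM in the second. Mx1 encodes an interferon-induced GTPase that is defective in C57BL mice. Unlike Oasl2-205 and Samhd1-204, which held 28.5% and 20.3% of their genes by the second quantification, Mx1-205 held 0.742%. Also among the 20 highest were Mroh1-208 (32.1 and 56.9 TPM), Paxbp1-201 (35.1 and 41.9 TPM) and Prpf38b-208 (21.04 and 41.95 TPM), the last from the gene of a pre-mRNA splicing factor. Mroh1-208, Paxbp1-201 and Prpf38b-208 stood higher in replicate 2. Members of the 20 highest not named so far, Gpnmb-202, Cd300c2-202 and Gm20605-201 among them, are described further on.

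**Figure D1:**
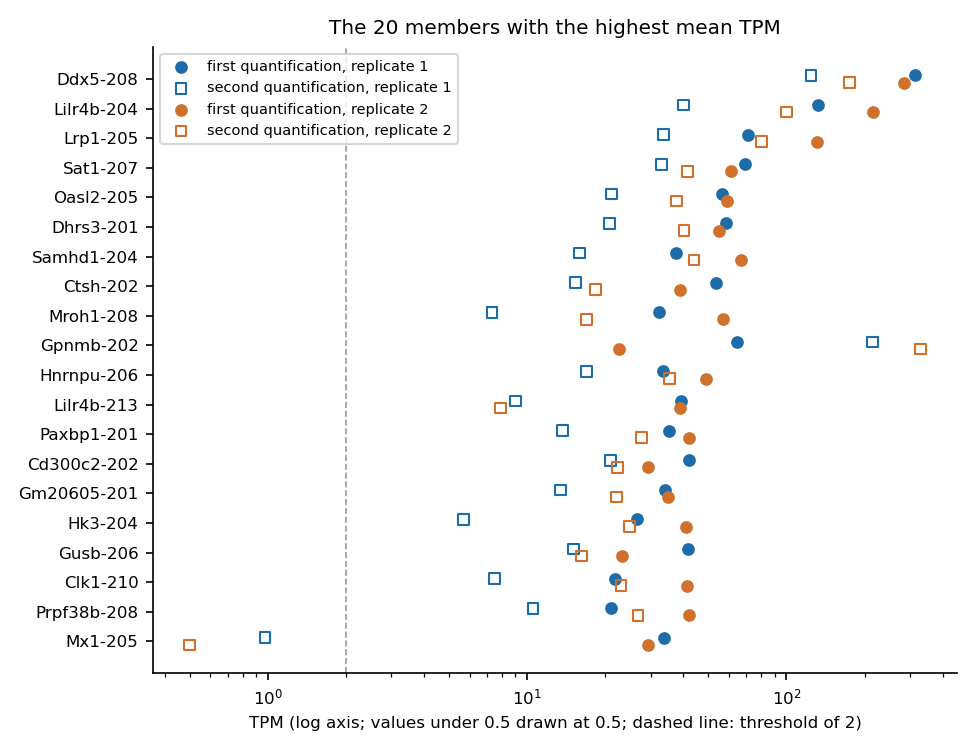
TPM (log axis) of the 20 members with the highest mean, as filled circles for the first and open squares for the second quantification, blue for replicate 1 and orange for replicate 2. Ddx5-208 stands highest at 312.0 and 285.2 TPM; in the second quantification Gpnmb-202 stands far to the right and Mx1-205 far to the left of its first values.

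The share of a gene's TPM assigned to a member had a median of 17.7% over the 632 members (16.3% in replicate 1 and 18.8% in replicate 2). It was under 10% for 167 members, from 10% up to 25% for 265 and from 25% up to 50% for 154. For 46 members (7.28%) it was 50% or more, beside 31.9% of all 20727 transcripts at 2 TPM. Of these 46, 28 passed 50% in both libraries and 18 by both quantifications. Among the 46 are 8 readthrough transcripts, which join exons of neighbouring genes. As median shares, retained-intron transcripts at the threshold had 16.7% and protein-coding transcripts 42.4%. A member was therefore usually a minor transcript of its gene, with a median share close to that of a retained-intron transcript.

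The 10 members with the largest shares among genes at 10 TPM or more are given next. Khnyn-203, from a gene of an antiviral cofactor, held 75.2% and 76.7% of its gene in replicates 1 and 2, at 15.6 and 12.1 TPM. Sh2b3-205 held 76.1% and 74.4%, at 19.8 and 16.03 TPM. Sh2b3 encodes the adaptor LNK, which dampens cytokine signalling. For both, the 2 libraries lay within 2 percentage points of each other. Rnf114-203, from the gene of a ubiquitin ligase, held 71.4% and 80.0%. Cd300c2-202, from the gene of a CD300 family receptor of myeloid cells, held 64.4% and 69.8%. Rbmx-205 held 69.6% and 63.4%, and Rbmx encodes hnRNP G, a regulator of splicing. By the second quantification the mean shares were 73.0% for Khnyn-203, 62.9% for Cd300c2-202 and 69.9% for Rbmx-205, and 49.0% for Sh2b3-205 and 49.3% for Rnf114-203. Oas1g-203, from a gene of the oligoadenylate synthetase family, held 65.1% and 61.0%, with 45.2% by the second, and Tmf1-202, from a Golgi-associated protein's gene, held 56.6% and 58.3%, with 49.9%. The remaining members with the largest shares were readthrough transcripts: Gm20605-201 (over Lrch4 and Sap25) and Evi2-201 (over Evi2a and Evi2b) at 100% in both libraries, and Gm42715-201 (over Srcap and Tmem265) at 55.2% and 64.5%. Their genes hold few or no other transcripts, so these shares say little about a choice between isoforms, and reads on their exons can also be assigned to the neighbouring genes.

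Summed per gene, members held at least 50% of the TPM in both libraries in 33 genes, of which 21 also passed by the second quantification's mean. Hnrnpa1 was the clearest case of members adding up. Hnrnpa1-203 stood at 21.1 and 39.5 TPM and Hnrnpa1-204 at 17.9 and 17.8 TPM, together 79.8% and 94.4% of the gene. In the second quantification the pair held 72.8%, but with Hnrnpa1-204 as the larger (49.0%, against 23.8% for Hnrnpa1-203). The pair thus held most of the gene in both quantifications, though less in the second, and the order of the 2 transcripts differed. Both end at a stop codon also used by a protein-coding transcript and have a splice junction after it.

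The genes with 3 or more members were 10 in number. Fes, the gene of a myeloid tyrosine kinase, had 4, from 6.32 TPM (Fes-206 in replicate 1) to 10.95 TPM (Fes-205 in replicate 2), and together they held 37.2% and 40.2% of the gene. Bclaf1, whose protein acts in RNA processing, had 4 with 25.2% and 26.3%. The splicing factor gene Rbm39 also had 4, with 11.4% and 10.7%. The shares of these 3 genes moved by at most 3.03 percentage points between libraries. Snapc3, from the complex that transcribes small nuclear RNA genes, had 3 members with 49.9% and 49.1%. Clasrp, a partner of the CLK kinases, had 3 with 41.9% and 50.7%. Rgs1, a regulator of G-protein signalling, had 3 with 34.9% and 39.6%. Zup1 (25.7% and 26.9%), Tpcn2 (22.2% and 21.02%), Dennd1a (19.9% and 22.7%) and Eif4a2 (14.9% and 23.4%) had 3 each.

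By the annotation, 629 of the 632 members (99.5%) have their stop codon more than 50 bases before the last exon junction, the usual distance in the rule for this type of decay. The same was true of 99.4% of all annotated nonsense-mediated decay transcripts and of 14 of 1426 protein-coding transcripts of the same genes (0.982%). Type and stop codon both come from the annotation, so these shares describe how it assigns the type and are no result about the members. The exceptions among the members were Cdipt-203 with 50 bases, Huwe1-212 with 30 bases and Adap2-202, whose stop codon runs 5 bases past the junction. They were named after their values were seen. The median distance was 528.5 bases in members and 334 in all annotated transcripts of the type, and the longest was 12430 bases in Stard9-203. Members were also longer, with a median of 2232.5 bases against 1255. The stop codon was TGA in 54.7%, TAA in 24.1% and TAG in 21.2% of members. These shares were 57.9%, 22.5% and 19.7% in all annotated transcripts of the type, and 49.4%, 27.8% and 22.8% in annotated protein-coding transcripts. In 152 members (24.1%) the annotation lacks the start of the coding part, beside 28.9% of all annotated transcripts of the type. The reading frame and stop codon of such a member rest on an incomplete coding part.

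Members were placed in classes by how they differ from the protein-coding transcripts of their gene. A member with several differences was counted once, under the first that applied of a stop codon in an added exon, a stop codon shared with a protein-coding transcript, a kept intron, an added exon and a skipped exon. Without that order, 197 members had an added exon (127 with the stop codon in it), 105 a kept intron and 96 a skipped exon. Both added-exon counts include 8 members of genes with no protein-coding transcript, whose exons all count as added. By class, a stop codon in an added exon was found in 119 (18.8% of members, 20.0% of the annotated type). Of these exons, 117 were internal, with a median length of 108 bases, and in these the coding part ran a median of 36 bases to the end of the stop codon. An exon whose length is a multiple of 3 leaves the downstream frame unchanged, and 48 of the 117 (41.0%) had such a length, so these depend on their own stop codon. An exon skipped against all protein-coding transcripts marked 71 members (11.2%, against 15.0% of the annotated type). A further 39 (6.17%, against 8.18%) held an added exon but had the stop codon elsewhere. A stop codon shared with a protein-coding transcript, followed by a splice junction, marked 56 (8.86%, against 7.03%). The largest class, 245 members (38.8%, against 43.2%), was spliced in another way. Of these, 169 used a splice site found in no protein-coding transcript of the gene, 61 joined known sites in a new way and 15 had no new junction. The remaining 8 came from readthrough genes with no protein-coding transcript.

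Kept introns were the class in which members differed most from the annotation. They marked 94 members (14.9%) and 5.30% of all annotated transcripts of the type. In 35 of the 94, the reading frame ran into the kept intron and met its stop codon there, after a median of 47 bases. Ddx5-208, Dhrs3-201, Samhd1-204, Sh2b3-205 and the NF-kB pathway member Ikbkb-208 belong to this class. Reads of unspliced RNA fall in the same introns, retained-intron transcripts held 36.6% of the TPM of the member genes, and the part of such reads in the TPM of these members was not tested.

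**Figure D2:**
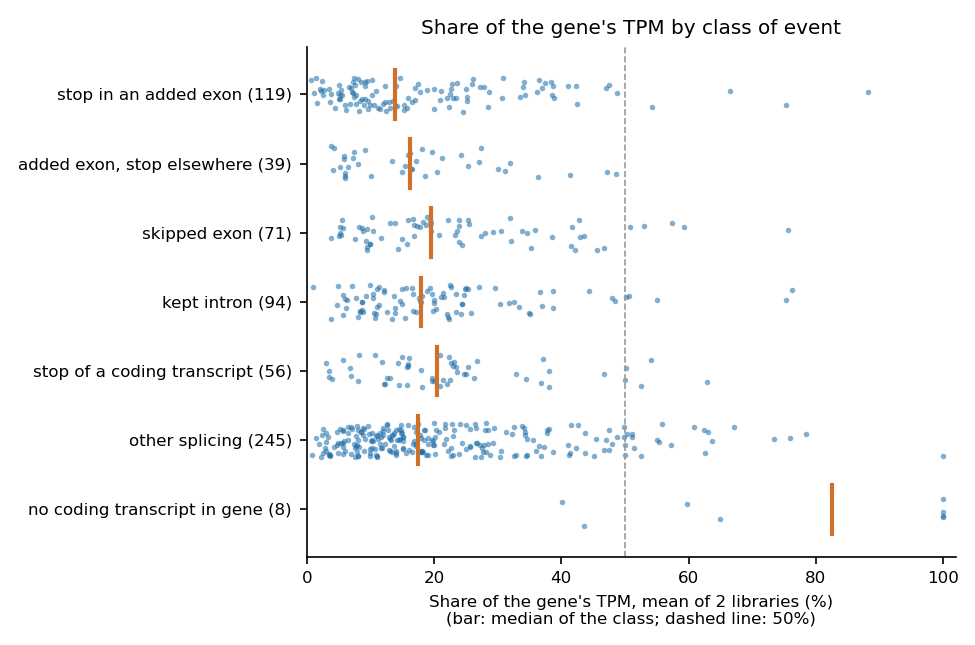
Share of the gene's TPM (mean of 2 libraries, in percent) for every member, grouped by class with the number of members in parentheses; orange bars are class medians and the dashed line marks 50%. Medians of the first 6 classes lie between 13.8% and 20.4%, and the 8 members of genes with no protein-coding transcript have a median of 82.5%.

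The median share differed little between classes. It was 13.8% for a stop codon in an added exon, 16.2% for an added exon with the stop elsewhere, 17.4% for other splicing, 17.9% for kept introns, 19.5% for skipped exons and 20.4% for a shared stop codon. Within each of these classes the quartiles were wider than the distance between the medians, for instance 7.56% to 25.6% for a stop codon in an added exon. By the second quantification the same medians ran from 13.3% to 15.7%, and their order differed.

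A list of 55 genes known for poison exons or self-control was looked at. Most encode splicing and RNA-binding proteins, and ribosomal protein genes, the translation gene Eif4a2 and the polyamine genes Sat1 and Oaz1 are on it too. All 55 stood at 2 TPM or more in both libraries, with a median of 75.5 TPM. Of the 44 with an annotated nonsense-mediated decay transcript, 26 (59.1%) had a member, 36 members in all, beside 554 of 2939 genes at 2 TPM with such a transcript (18.8%). At 10 TPM or more, 491 of 1760 such genes had one. The list was picked for such transcripts, with earlier results of these data known, so its share is a description. Some of its genes have many annotated transcripts of the type, 10 in Tardbp and 8 in Rbm39. The list's median gene also stood above the median member gene (31.4 TPM), and the part of gene level in the larger share was not tested. Genes of the list with an annotated transcript of the type and no member included Srsf5, Srsf11 and Hnrnpa2b1, which stood at 332.2, 212.9 and 478.7 TPM.

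Among the SR proteins, which bind exons and promote their use, 6 of the genes gave a member. Srsf3-201 stood at 7.02 and 6.98 TPM with 11.4% and 13.5% of its gene. Srsf7-203 stood at 2.03 and 2.29 TPM with 6.16% and 8.32%. Srsf4-204 stood at 2.88 TPM in both libraries with 14.5% and 15.9%. Each of these 3 carries its stop codon in an added exon and moved little between libraries. That exon is internal in Srsf3-201 and Srsf7-203. In Srsf4-204 it is the first exon, and the annotation lacks the start of the coding part. Srsf1-204 (4.29 and 4.2 TPM) and Srsf6-201 (3.88 and 4.63 TPM) held 8.82% and 8.22% of their genes in the mean. Srsf2-204 was the exception, at 2.97 and 9.45 TPM with 1.55% and 4.63%.

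The SR-like activators Tra2a and Tra2b differed in level. Tra2a-202 stood at 20.8 and 34.6 TPM and held 29.4% and 43.0% of its gene, with 54.5% by the second quantification. Tra2b-206 stood at 3.34 and 4.51 TPM with 5.54% and 6.95%, and 4.27% by the second. Total TPM of the 2 genes was 75.5 ± 6.74 for Tra2a and 62.6 ± 3.20 for Tra2b (SD, n = 2). In each library and each quantification the share of the member was higher for Tra2a.

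Among the hnRNP genes, whose proteins often repress exons, Hnrnpd-208 stood at 15.0 and 21.7 TPM with 31.4% and 42.9% of its gene. Hnrnpl-213 stood at 8.73 and 18.1 TPM with 5.59% and 12.9%. Hnrnpu-206, annotated as a readthrough transcript, stood at 33.3 and 49.1 TPM with 20.8% and 27.5%. All 3 were higher in replicate 2, and Hnrnpl-213 by more than 2-fold. Tardbp, the gene of TDP-43, had 2 members, Tardbp-208 at 14.1 and 18.2 TPM and Tardbp-228 at 12.8 and 7.44 TPM, together 31.7% and 32.9% of the gene. Tial1-206 (7.45 and 5.26 TPM) and Tial1-204 (3.5 and 2.85 TPM) came from the gene of a U-rich RNA-binding protein.

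The CLK kinases phosphorylate SR proteins. Clk1-210 stood at 21.8 and 41.5 TPM, with 18.4% and 28.7% of its gene. Clk4-212 stood at 2.83 and 2.4 TPM and was one of the members farthest above its first value in the second quantification (10.8 and 8.39 TPM). Rpl12-201, from a ribosomal protein gene, held 46.4% and 53.2% of its gene at 29.7 and 20.5 TPM, but 16.6% by the second quantification. Eif4a2-210, from a translation initiation helicase gene, stood at 17.98 and 38.2 TPM with 8.72% and 16.6%. Clk1-210 and Eif4a2-210 stood higher in replicate 2, and Clk4-212 and Rpl12-201 in replicate 1.

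**Figure D3:**
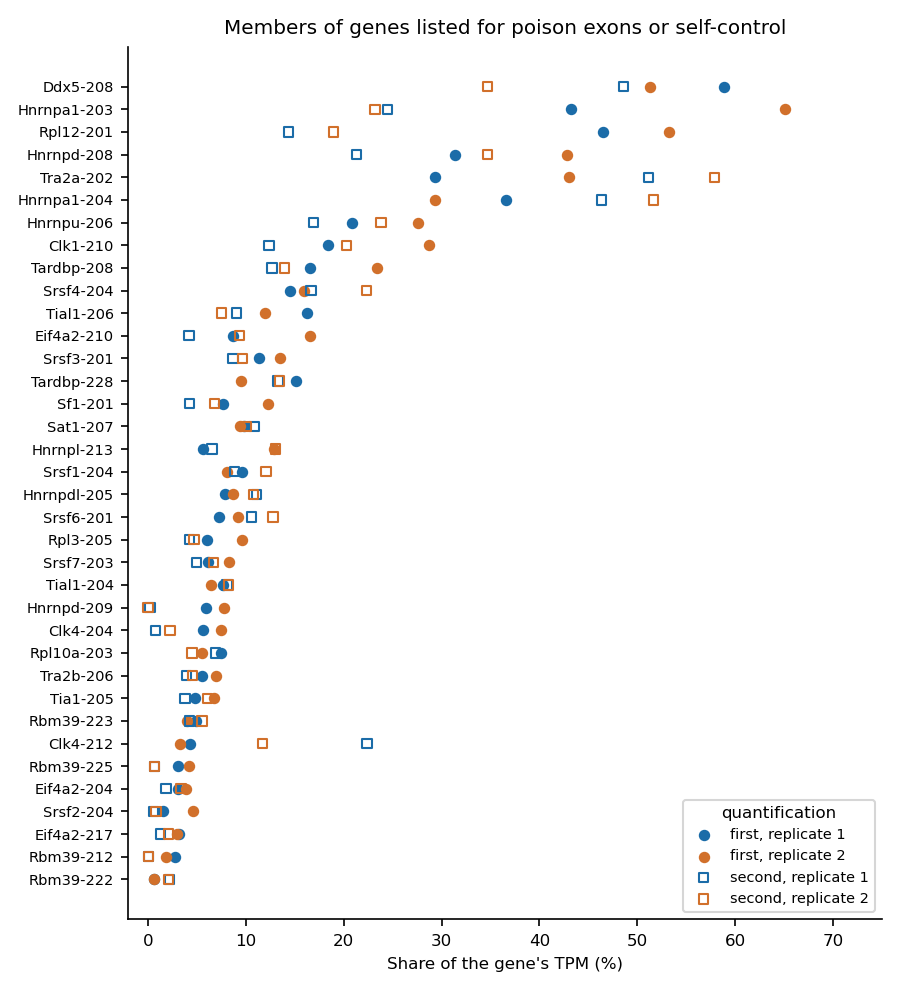
Share of the gene's TPM (percent) for the 36 members of the 55 genes listed for poison exons or self-control, mostly of splicing and RNA-binding proteins, filled circles for the first and open squares for the second quantification, blue for replicate 1 and orange for replicate 2. Ddx5-208, Hnrnpa1-203 and Rpl12-201 have the largest first shares and smaller second ones, while Tra2a-202 and Hnrnpa1-204 lie higher in the second.

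Innate immunity genes were looked at as a list of 71 for Toll-like receptor, NF-kB, interferon and phagocyte functions. Of these, 17 had an annotated transcript of the type and 3 (17.6%) had a member. Of all genes with such a transcript, 18.8% at 2 TPM and 491 of 1760 at 10 TPM or more had one. The members on the list were Oasl2-205, described above, Ikbkb-208 at 3.37 and 5.64 TPM, and Nfkb1-207 at 2.02 and 2.01 TPM. Ikbkb encodes the kinase that releases NF-kB and Nfkb1 encodes an NF-kB subunit. Ikbkb-208 held 6.37% and 11.0% of its gene and Nfkb1-207 held 4.73% and 5.92%. Nfkb1-207 stood at 0 TPM in both libraries of the second quantification. The antiviral genes Mx1, Samhd1 and Oas1g, whose members are described above, are not on this list.

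The decay pathway's own genes were present. Of 30 genes, 29 reached 2 TPM in both libraries, with a median of 13.3 TPM, and Magohb (1.62 and 2.38 TPM) did not. The helicase Upf1, which marks the RNA for decay, stood at 15.7 and 12.5 TPM, its partner Upf2 at 10.7 and 12.9 TPM, and the kinase Smg1, which phosphorylates UPF1, at 74.3 and 85.8 TPM. The endonuclease Smg6 stood at 15.2 and 16.7 TPM, and the exon junction helicase Eif4a3 at 17.2 and 15.2 TPM. None of the 30 had a member. Only 8 of them have an annotated transcript of the type, and over all genes at 2 TPM with such a transcript 18.8% had a member. These are nuclear RNA levels of the pathway's genes and give no measure of decay.

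Between the 2 libraries, log2(TPM + 1) over the 632 members had a Pearson r of 0.86, and the share of the gene's TPM had an r of 0.89; the members share libraries and depth, so both are descriptions. In replicate 1, 19 members (3.01%) were more than 2-fold higher, beside 4.57% of all 20727 transcripts at 2 TPM. In replicate 2, 39 members (6.17%) were more than 2-fold higher, beside 3.13%. In all, 58 members were more than 2-fold apart (9.18%), beside 7.7% of all transcripts. Members were higher in replicate 2 in 54.3% of cases, against 41.6% of all transcripts at 2 TPM. The median log2 ratio of replicate 1 to replicate 2 was -0.07 for members and 0.08 for all. After centring on the median transcript, 13 members (2.06%) were more than 2-fold higher in replicate 1, beside 3.68% of all transcripts, and 46 (7.28%) in replicate 2, beside 3.71%. With 1 library on each side this difference has no test, and whether the lower RNA input or the lower depth of replicate 2 has a part in it was not tested. The libraries also differed in the summed TPM of the 71 innate immunity genes, at 4794 in replicate 1 and 3705 in replicate 2. The genes of this list differed unevenly. Tnf (76.6 and 17.7 TPM in replicates 1 and 2), Nfkbia (70.1 and 17.4) and Fos (174.6 and 61.3) were more than 2-fold apart. Csf1r (531.9 and 504.7 TPM) differed little, and Tbk1 (63.1 and 79.8 TPM) was higher in replicate 2. Whether a difference in these genes has a part was not tested either.

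The 5 members farthest apart in each direction are described next. Zranb2-208, from a splicing regulator's gene, stood at 2.59 TPM in replicate 1 and 34.3 TPM in replicate 2, with deposited intervals of 0.232 to 5.60 and 25.1 to 37.8 TPM. Its second quantification gave 2.67 and 28.4 TPM, so both quantifications placed it far higher in replicate 2. The splicing helicase member Dhx15-207 behaved likewise, at 4.28 and 24.3 TPM in the first and 3.40 and 18.3 TPM in the second. Both quantifications rest on the same reads and are not replicates, so the second is no separate measurement of these differences. Ylpm1-203 (2.3 and 11.9 TPM), Ndufa3-204 (4.91 and 20.0 TPM), from a complex I subunit gene, and Gpi1-207 (2.58 and 10.5 TPM), from a glycolytic enzyme's gene, were the others. In the opposite direction stood Hspa5-204 at 34.4 and 8.08 TPM. Hspa5 encodes the endoplasmic reticulum chaperone BiP, and its gene total was also higher in replicate 1, at 215.5 and 103.2 TPM. Gpnmb-202 (64.5 and 22.6 TPM), Stx4a-209 (10.8 and 3.45 TPM), Dennd1a-209 (7.62 and 2.55 TPM) and Rpl13a-216 (14.9 and 5.48 TPM) completed that group.

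**Figure D4:**
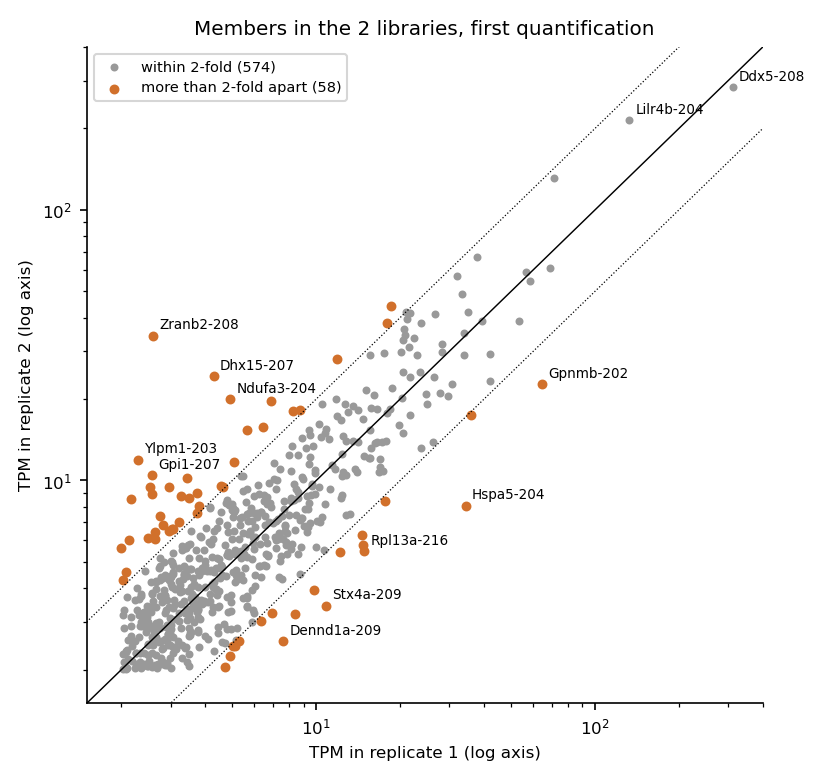
TPM of the 632 members in replicate 1 against replicate 2 (both axes logarithmic), with the line of equality and dotted lines at 2-fold; 58 orange points lie beyond 2-fold. Zranb2-208 lies farthest above the line and Hspa5-204 farthest below.

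The second quantification put most transcripts lower in TPM, 88.3% of the members and 88.8% of all transcripts at 2 TPM. Over all 20727 transcripts at 2 TPM its median log2 ratio to the first was -0.81, and over the members it was -0.79, so the members moved with the rest. TPM sums over all entries of a table, and over transcripts with an effective length above 50 bases the first quantification's sum was 2.23 times the second's in replicate 1 and 1.55 times in replicate 2. As deposited, 209 members (33.1%) were more than 2-fold lower in the second, beside 27.7% of all transcripts, and 15 (2.37%) were more than 2-fold higher, beside 2.02%. After centring on the median transcript, 60 members (9.49%) were lower, beside 4.54% of all, and 50 (7.91%) were higher, beside 8.2%. Of the 632 members, 355 (56.2%) also reached 2 TPM in both libraries of the second quantification as deposited, beside 67.4% of all transcripts, and after centring 524 (82.9%), beside 89.6%. The second quantification held 672 nonsense-mediated decay transcripts at 2 TPM, so the 355 shared ones are 52.8% of its list. Of its other 317, 58 were listed at 0 in both libraries of the first.

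A pseudocount of 0.1 TPM was added before each ratio of the quantifications.

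The share of the gene's TPM does not depend on the table's total. Its Pearson r between quantifications was 0.82 over the 632 members, with medians of 17.7% in the first and 14.2% in the second. By share, 110 members were more than 2-fold lower in the second and 27 higher, while 12.5% of all transcripts at 2 TPM were lower and 2.66% higher. That is 17.4% and 4.27% of the members.

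Myof-205, Vps13c-203 and Gm42715-202 were listed at 0 in both libraries of the second quantification. Their first values were 15.7 and 13.2 TPM for Myof-205, from a membrane repair gene, 8.84 and 7.27 TPM for Vps13c-203, from a lipid transfer protein's gene, and 7.88 and 5.33 TPM for Gm42715-202. Bclaf1-208, at 4.11 and 5.94 TPM in the first, was at or near 0 in the second. None of these 4 has a base of its own within the gene, but the median over all members is only 2 such bases. Myof-205, Vps13c-203 and Gm42715-202 each have a junction of their own, and Bclaf1-208 has none. The added exon of Bclaf1-208 is also held by the member Bclaf1-204. That transcript held 6.77% of the gene in the first quantification and 8.46% in the second, as means of the libraries. In all, 5 members were at 0 in both libraries of the second quantification.

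Gpnmb-202 went the other way, from 64.5 and 22.6 TPM to 215.2 and 328.6 TPM. Gpnmb encodes a transmembrane glycoprotein of macrophages, and this transcript is 365 bases long with a 96-base exon of its own. Its share of the gene was 2.13% and 0.952% in the first and 15.9% in the mean of the second. In TPM as deposited, its order between libraries also turned, higher in replicate 1 by the first and in replicate 2 by the second. Second-quantification TPM is not on the same scale in the 2 libraries, with the factors of 2.23 and 1.55 given above. By share of the gene, which does not depend on the table's total, the second gave 14.7% and 17.1% in replicates 1 and 2. Asah1-202, from the acid ceramidase gene, stood at 4.45 and 2.88 TPM in the first and 18.2 and 11.1 TPM in the second. Plxnc1-204, from a semaphorin receptor gene, stood at 2.73 and 2.99 TPM against 9.22 and 15.8 TPM. Rbm39-222 stood at 2.11 and 2.19 TPM against 7.12 and 9.05 TPM, while Rbm39-212, which shares its poison exon, stood at 9.29 and 6.43 TPM against 0.174 and 0.113 TPM. Rbm39-225, which also holds that exon, stood at 10.4 and 14.5 TPM against 2.10 and 2.97 TPM. Together the 3 held 6.58% of the gene in the first quantification and 2.86% in the second, as means of the libraries.

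**Figure D5:**
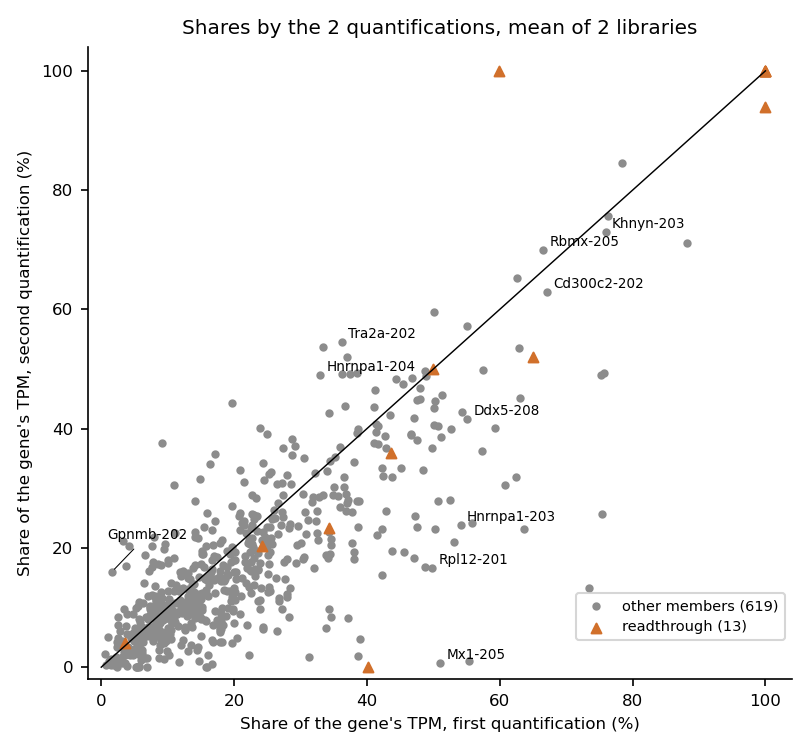
Share of the gene's TPM (percent, mean of 2 libraries) by the first quantification against the second for the 632 members, with the line of equality; orange triangles are the 13 readthrough transcripts. Mx1-205 and Rpl12-201 lie far below the line and Tra2a-202, Hnrnpa1-204 and Gpnmb-202 above it.

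With TPM as deposited, members without sequence of their own were more often far apart between the quantifications. This split was not made after centring or by share. Of the members, 97 have no base and no junction that other transcripts of the gene lack. Among these, 55 (56.7%) were more than 2-fold apart between quantifications as deposited, against 31.6% of the 535 with such a feature. Their deposited TPM intervals were also wider, with a median ratio of upper to lower bound of 2.03 and 2.30 in replicates 1 and 2 against 1.68 and 1.83. Over all members, the lower bound was at or above 2 TPM in both libraries for 366, and under 0.5 TPM in at least 1 library for 20. For 22 members the TPM lay outside its own interval in at least 1 library.

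Some members overlap other genes. Exons of 137 members overlap a gene on the opposite strand, and strand handling is not given in the sources used here. Exons of 48 members overlap another gene on the same strand. Zfp207-207 and Gm38394-202 each have an annotated transcript of identical sequence, so their TPM cannot be told apart from that of their copy. The part of such overlaps in the differences between quantifications was not tested.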

How the data were processed

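Nuclear ribosomal RNA-depleted total RNA of stimulated mouse macrophages was measured in 2 libraries of 1 group. Each library came with a transcript table of TPM, posterior mean TPM, interval bounds and expected counts, a gene table of the same kind, and another transcript table of TPM and estimated counts, here called the second quantification. Per the text files deposited beside them, both used mm10 and GENCODE annotation M21; programs, versions and strand handling are not given in the sources used here, and the column names are those that RSEM and kallisto write. Expected counts, as deposited, are estimated read counts that need not be whole. The deposited TPM was scaled by the authors over a whole table, so a change in any abundant entry moves every other TPM. The deposited interval bounds, a signal that is never negative, surround the posterior mean. The percent of a gene's abundance per transcript that the authors deposited was not used; shares were computed from TPM summed over each gene's transcripts.

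Members were nonsense-mediated decay transcripts with at least 2 TPM in both libraries of the first quantification. Entries that name no annotated transcript were left out. Transcript structures, stop codons and sequences came from the GENCODE M21 annotation, which matched all 141767 transcripts. The structure and fold functions were tested on simulated transcripts and values. Values are given per library or as mean ± SD over 2 libraries; with 1 group no test was made. Intervals cover estimation error within a library only. Members, lists and the rule for naming were chosen with earlier results of these data known. Named members were the 20 highest by TPM, the 10 with the largest share in genes at 10 TPM or more, the 5 farthest apart between libraries and between quantifications in each direction, the 10 highest of each gene list, the 3 on each side of the threshold, and the genes with 3 or more members; other members of the splicing list were added afterwards. Of the members so named, 1 is not reported here. Alternatives covered the threshold, posterior means, expected counts, the second quantification, centring, pseudocounts and each library alone. Python 3.11.15, numpy 2.4.6, pandas 2.3.3 and matplotlib 3.10.9 were used.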

Additional observations from a re-analysis of the deposited data

How the results depend on the processing

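For the number of members (632), a threshold of 1 TPM gave 1062 members and one of 5 TPM gave 257; each library alone gave 788 to 856. Where posterior means (611 transcripts), the second quantification (672) or a single library are named below for shares, the transcripts were chosen again under that setting unless the same members are named.

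The members' share of all TPM (0.548%) was 0.509% with posterior means, 0.473% in the second quantification, 1.48% in expected counts, 1.81% over protein-coding genes, and 0.572% to 0.657% in a single library. The 632 members themselves held 0.346% in the second quantification, and 0.521% and 0.575% in replicates 1 and 2. The median share of the gene (17.7%) was 15.9% with posterior means and 15.9% in genes at 10 TPM or more, 14.2% for the same members in the second quantification, and 15.3% to 17.5% in a single library, where the members themselves had 16.3% and 18.8%.

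The number of members at 50% or more of their gene (46) was 26 with posterior means, 23 in genes at 10 TPM or more, 21 for the same members in the second quantification, and 39 to 73 in a single library; replicate 2 alone gave the 73.

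Members more than 2-fold apart between libraries (58) were 37 with a pseudocount of 1 TPM and 169 in the second quantification, 161 of them higher in replicate 2, and 72 there after centring. This count needs both libraries, so none could be left out. Members more than 2-fold apart between quantifications (224) were 110 after centring, 140 with a pseudocount of 1 TPM, 137 by share, and 151 to 383 in a single library; replicate 1 alone gave the 383. Members at the threshold in the second quantification (355) were 543 at 1 TPM and 550 after rescaling over transcripts with an effective length above 50.

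Shares of the same members in the second quantification, the set without readthrough transcripts and the centred second quantification were added after seeing the data. The cause of these changes was not tested. No paired analysis was possible because there is 1 group. Depth limits the low members, whose fewest expected reads were 8.6 and 5.76.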
